A study of Homo sapiens with 4 samples.

Results

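The genes described here encode the enzymes that build purine and pyrimidine nucleotides, turn them into deoxynucleotides and recover them from free bases and nucleosides. The group was set by a list of 36 symbols, all of which were found among the 26364 genes listed, and all 36 passed the expression filter. The RNA came from BE(2)C, a human neuroblastoma cell line that carries extra copies of MYCN, and each of the 2 conditions had 2 samples. In one, called Ctrl and labelled wild type, the siRNA was a non-targeting control, and in the other, called MYCN KD, it was directed at MYCN. The labels state 80 nM siRNA with a Lipofectamine reagent for 6 h and extraction of total RNA on the day after, in cells kept in DMEM with serum, and the study's methods give a lower final concentration after medium was added. Every sample is the same cell line, and the study calls the replicates biological. Neither the study nor the labels say whether they were separate cultures. The tests therefore measure the spread left between these samples after the authors' adjustment, which may be technical.

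Purines are assembled step by step on phosphoribosyl pyrophosphate (PRPP) until the ring is closed as inosine monophosphate (IMP), from which AMP and GMP are made. The pyrimidine ring is made first and then joined to PRPP, giving UMP and, through CTP synthase, CTP. Ribonucleotide reductase converts ribonucleotides to the deoxynucleotides used in DNA, thymidylate synthase makes the thymine nucleotide, and salvage enzymes reuse bases and nucleosides. MYC family transcription factors are known to bind promoters of several of these genes, which in tumours with amplified MYCN serve fast growth.

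Values are RPKM (reads scaled to gene length and to the mapped reads of the sample) after the authors' removal of unwanted variation, so they are levels relative to the rest of the library. In such bulk samples, fewer cells of a type and less RNA per cell cannot be told apart. The deposited values resolved into whole reads, with totals from 29055819 (MYCN KD replicate 1) to 34142988 reads (Ctrl replicate 1). The 36 genes carried from 239 reads (RRM2B) to 18190 reads (RRM2) per sample. MYCN itself measured 1068 and 1073 RPKM in Ctrl, against 720.2 and 718 RPKM in MYCN KD, 67.2% of the Ctrl mean. Its paralog MYC went the other way, from 0.7799 and 0.5419 RPKM in Ctrl to 6.735 and 9.316 RPKM in MYCN KD (log2 fold change 2.43, standard error 0.18, adjusted p = 0.00497 from limma), the largest rise among the tested genes, and remained far below the level of MYCN. The replicates were not independent in their deviations. Over the 11411 tested genes the deviation of replicate 1 from its group mean correlated between the conditions at -0.9845. Over the 36 genes this was -0.9992, a description across genes. The limma fit treated the samples as independent, with 2 residual degrees of freedom, so its standard errors and p-values may be too small. All 10 noradrenergic neuroblastoma markers examined, among them HAND2, GATA3 and DBH, were at 23.77 RPKM or above in every sample. Of the 10 mesenchymal or fibroblast markers, FAP and PRRX1 were listed at 0 in every sample, and the summed level of the list was 69.61 and 75.37 RPKM in Ctrl, against 75.3 and 69.76 RPKM in MYCN KD. That sum was mostly TWIST1, at 45.8 and 49.48 RPKM in Ctrl, against 42.06 and 39.07 RPKM in MYCN KD. Of the 6 mesenchymal markers tested 4 were higher and 0 lower (1 lower at an unadjusted p under 0.05, 0 by limma voom), with a median log2 fold change of 0.41. These were COL6A3 (0.81), COL1A1 (0.67), DCN (0.66) and PDGFRB (0.16). The 8 haematopoietic markers summed to 6.221 and 5.329 RPKM in Ctrl, against 11.14 and 13.34 RPKM in MYCN KD, with HBB and HBA1 at 0 and PTPRC at or near 0. Their rise was that of CD68, a lysosomal protein, from 4.261 and 3.454 RPKM to 9.401 and 11.48 RPKM, and the part of these markers in the results was not tested.

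Upon MYCN knockdown, 23 of the 36 genes (63.9%) had fallen with an adjusted p below 0.05 in the limma fit, where 22.8% of all tested genes were lower. None was higher (0 of 36, also 0 at an unadjusted p under 0.05 and 0 by limma voom), where 25.3% of all tested genes were higher. The median log2 fold change of the 36 genes was -0.53, with quartiles of -0.73 and -0.13, against a median of 0.03 and quartiles of -0.23 and 0.29 for all tested genes. Both MYCN KD values lay below both Ctrl values in 28 genes, a pattern that 35.8% of all tested genes showed, and above them in CTPS2 alone, a pattern of 40.4% of all tested genes. By position in the pathway, 15 of the 17 genes from PRPP to AMP, GMP and CTP were lower, with a median of -0.65, and 8 of the other 19 genes were lower, with a median of -0.22. This division was drawn with the results known and was not tested. With median-ratio scaling, which moved the balance of all calls to 3254 lower and 2417 higher from 2599 lower and 2890 higher, 25 of the 36 genes were lower. Rescaling each sample to the same total went the other way, to 2122 lower and 3279 higher of all tested genes, with 22 of the 36 genes lower and 24 in place of 28 below Ctrl without overlap.

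**Figure D1:**
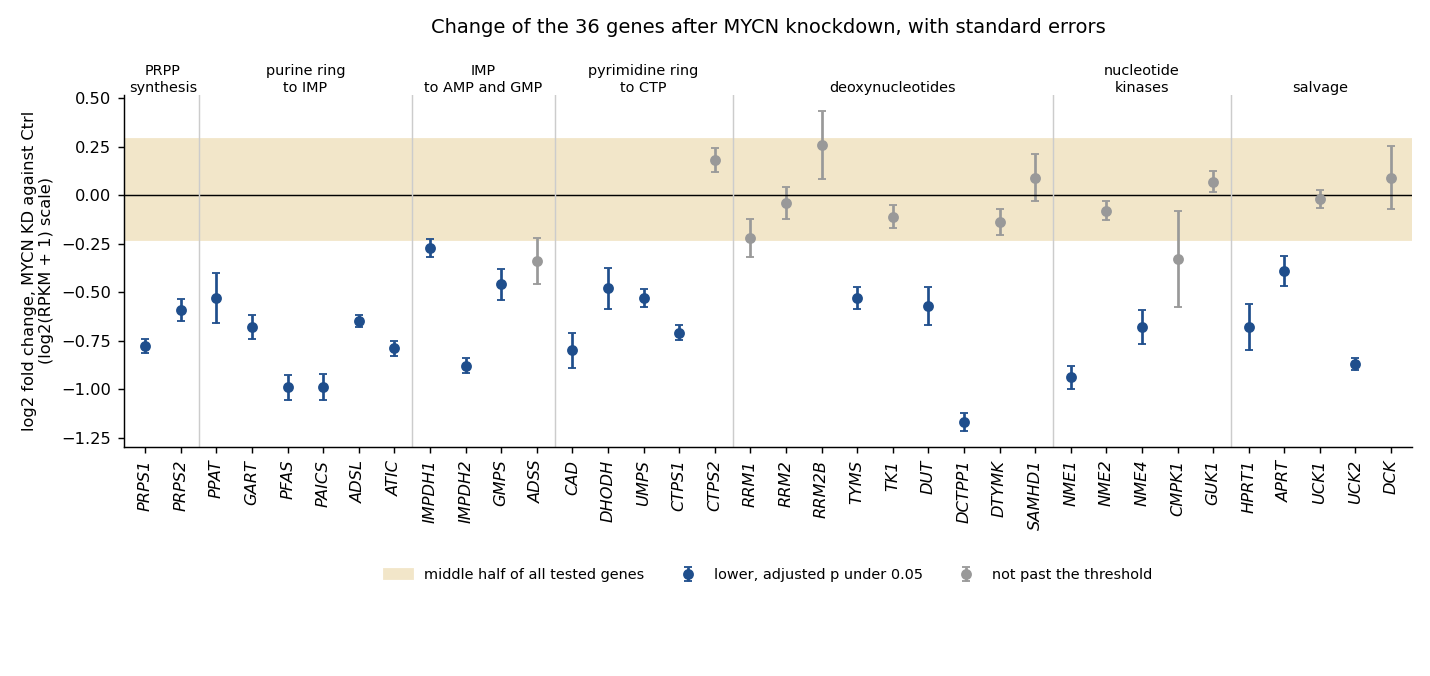
Log2 fold change of MYCN KD against Ctrl on the log2(RPKM + 1) scale for the 36 genes, ordered by role, with the standard error from limma (2 samples per condition); the band spans the quartiles of all tested genes, -0.23 to 0.29. The points of the ring synthesis genes lie below the band except that of CTPS2, and those of RRM2, TK1, DTYMK and UCK1 lie inside it.

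The levels of the 36 genes spanned a wide range. In Ctrl the nucleoside diphosphate kinase NME1 was the highest, with a mean of 314.2 RPKM, followed by the guanylate kinase GUK1 at 213.7 RPKM and the dCTP pyrophosphatase DCTPP1 at 178.8 RPKM. The lowest were CTPS2 at 7.154, DHODH at 6.943 and RRM2B at 1.632 RPKM. The order changed in MYCN KD, where GUK1 stood first, DCTPP1 moved from rank 3 to rank 11 and PAICS from rank 7 to rank 13. TK1 moved from rank 13 to rank 5, with 92.4% of its Ctrl mean. The mean levels of IMPDH1 (160.5 ± 5.33 RPKM, SD, n = 2) and RRM2 (157.4 ± 11.6 RPKM, SD, n = 2) were neighbours in Ctrl that did not differ beyond their spread. Added up, the 36 genes measured 2856 and 2824 RPKM in Ctrl, against 1976 and 1997 RPKM in MYCN KD.

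**Figure D2:**
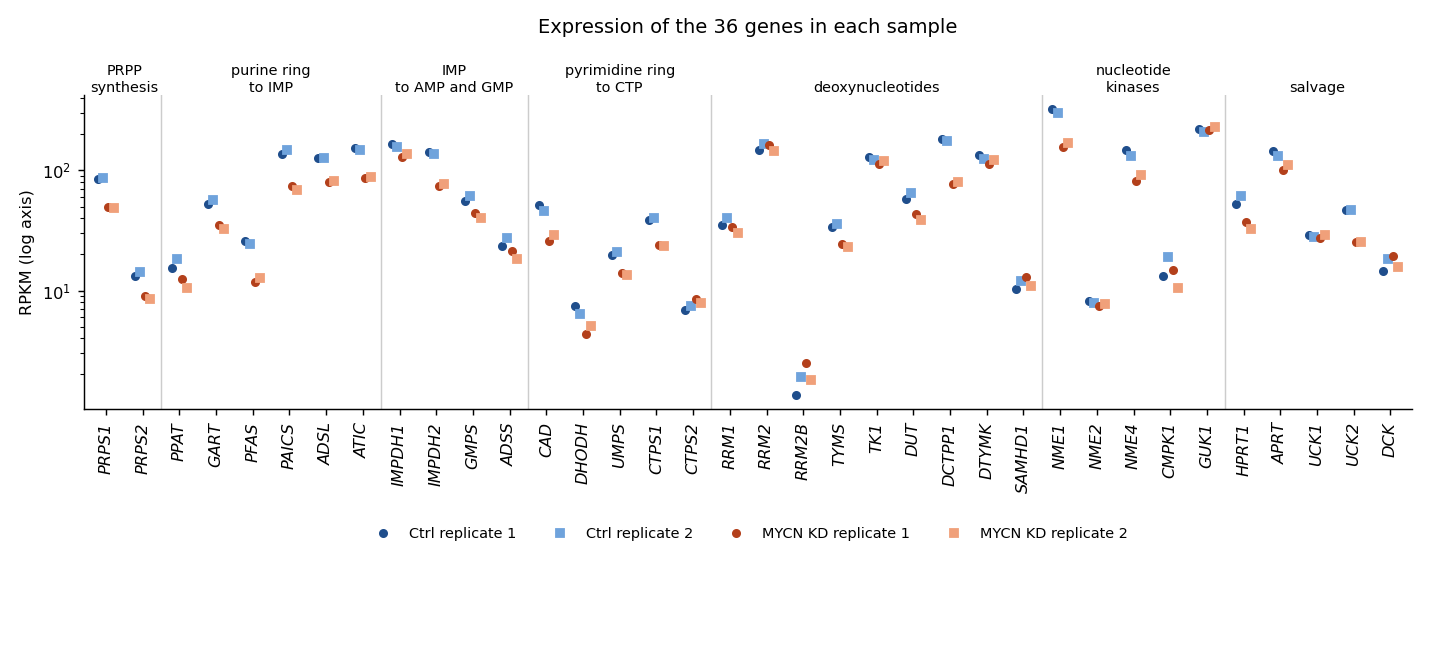
RPKM of each of the 36 genes in the 2 Ctrl (blue shades) and 2 MYCN KD (red and orange) samples on a log axis, ordered by role. The 6 genes of the purine ring separate fully by condition, with MYCN KD below Ctrl as in 35.8% of all tested genes. The 4 values of RRM2, between 145.8 and 165.7 RPKM, interleave.

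MYC family proteins bind the E-box, whose canonical letters are CACGTG, the same on both strands. RefSeq promoter sequences of GRCh38.p14, from 250 bases before to 50 after the start site, matched 33 of the 36 genes (ADSS under its present symbol ADSS2). ADSL, IMPDH2 and RRM2B had no entry. CACGTG stood in at least 1 promoter of 7 of the 33 genes (21.2%), compared with 8.77% of all 27305 genes with a promoter. These were PPAT, PAICS, ATIC, DHODH, DCTPP1, NME1 and DCK. The related letters CACGCG, read on both strands, stood in 5 of the 33 genes (15.2%; PFAS, ADSS, DUT, APRT and DCK) and in 13.5% of all genes. Of the 7 genes with CACGTG 6 were lower in MYCN KD, with DCK the exception, and of the 26 without it 15 were lower. Of all tested genes, with or without CACGTG, 22.8% were lower. PPAT and PAICS share a site, and ADSL, IMPDH2 and RRM2B could not be scored. The share lower among all genes with CACGTG was not computed and the difference was not tested, so no link to the motif is drawn. A match describes these letters only, and binding was not measured in these files.

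The windows around each CACGTG are shown because these genes include 3 of the 5 largest falls of the group, in DCTPP1, PAICS and NME1. Each is read 5′ to 3′ on the strand of the gene in GRCh38.p14, with the E-box in capitals and its first base numbered from the start site, which is base 1.
DCTPP1, chr16:30429792-30429821, minus strand, first capital at base -9: ggagggttcctcCACGTGgtcgggaagcgg
NME1, chr17:51153581-51153608, plus strand, at base 35: agtgctgcgaacCACGTGggtcccgggc
ATIC, chr2:215312001-215312030, plus strand, at base -46: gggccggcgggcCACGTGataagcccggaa
ATIC, chr2:215312076-215312105, plus strand, at base 30: ctcctacctgcgCACGTGgtgccgccgctg
DHODH, chr16:72008573-72008602, plus strand, at base -159: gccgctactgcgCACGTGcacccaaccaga
DCK, chr4:70993521-70993550, plus strand, at base -116: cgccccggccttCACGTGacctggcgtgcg
PPAT, chr4:56435780-56435809, minus strand, at base -182: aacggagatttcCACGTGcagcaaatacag
The site of PPAT is also that of PAICS, whose start lies on the other strand, and there it begins at base 41.

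PRPP, the shared substrate of both pathways, is made by the PRPP synthetases. PRPS1 (chromosome X of GRCh37, 106871658 to 106895223, plus strand) measured 84.32 and 86.58 RPKM in Ctrl, against 49.93 and 48.78 RPKM in MYCN KD. The change on the log2 scale came to -0.78 (standard error 0.0361, adjusted p = 0.00359 from limma). Its paralog PRPS2 was lower throughout, at 13.31 and 14.16 RPKM in Ctrl, against 9.024 and 8.5 RPKM in MYCN KD, and fell by 0.59 on the log2 scale (standard error 0.0566, adjusted p = 0.00697 from limma). Neither gene's conditions overlapped, and MYCN KD kept 57.8% of the Ctrl mean of PRPS1 and 63.8% of that of PRPS2.

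All 6 enzymes that build the purine ring were lower in MYCN KD, where 22.8% of all tested genes were lower. Their log2 fold changes ran from -0.99 to -0.53, with a median of -0.74. Their summed level was 513.3 and 524 RPKM in Ctrl, against 299.4 and 294.4 RPKM in MYCN KD. PPAT, the amidotransferase of the committed step, measured 15.5 and 18.43 RPKM in Ctrl, against 12.43 and 10.53 RPKM in MYCN KD. Its conditions did not overlap, and its fall was the smallest and least certain of the 6 (log2 fold change -0.53, standard error 0.127, adjusted p = 0.0424 from limma). It missed the threshold when genes of every level were kept (adjusted p = 0.0671 from limma) and with samples rescaled to the same total (adjusted p = 0.0725). PFAS (chromosome 17, 8150936 to 8173809, plus strand), the synthase that adds a further nitrogen before the first ring closes, measured 26.03 and 24.16 RPKM in Ctrl, against 11.68 and 12.59 RPKM in MYCN KD. That is 48.4% of the Ctrl mean, a log2 fold change of -0.99 (standard error 0.0644, adjusted p = 0.00436 from limma).

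PAICS, which carries 2 later steps of the ring in 1 protein, measured 137.2 and 148.8 RPKM in Ctrl, against 74.23 and 68.78 RPKM in MYCN KD, 50% of the Ctrl mean. The change on the log2 scale came to -0.99 (standard error 0.0672, adjusted p = 0.00452 from limma). ATIC (chromosome 2, 216176679 to 216214496, plus strand), which closes the ring to IMP, measured 153.7 and 149.2 RPKM in Ctrl, against 85.6 and 88.27 RPKM in MYCN KD. The estimated log2 change came to -0.79 (standard error 0.0376, adjusted p = 0.00359 from limma). The trifunctional enzyme GART and the lyase ADSL, which also acts between IMP and AMP, fell as well, with log2 fold changes of -0.68 and -0.65. Each of these 4 genes separated fully by condition, with MYCN KD below Ctrl, as did 35.8% of all tested genes.

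PAICS and PPAT lie head to head on chromosome 4, PPAT from 57259528 to 57301781 on the minus strand and PAICS from 57301907 to 57330744 on the plus strand of GRCh37, 125 bases apart. The 136 bases between their RefSeq start sites are shown because the genes share this stretch. It spans chr4:56435616-56435751 of GRCh38.p14 on the plus strand and holds 75% G and C, with the 3 copies of GGGCGG, the letters of the GC box, in capitals (45% of all RefSeq promoters hold GGGCGG on either strand).
PPAT-PAICS: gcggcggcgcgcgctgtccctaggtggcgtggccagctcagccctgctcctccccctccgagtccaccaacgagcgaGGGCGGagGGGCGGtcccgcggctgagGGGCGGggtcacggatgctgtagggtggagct
Despite the shared stretch, the level of PAICS was 8.85 and 8.07 times that of PPAT in Ctrl and 5.97 and 6.53 times in MYCN KD. Both ratios in MYCN KD were below both in Ctrl. The pair was set side by side with the values known, and the difference was not tested.

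From IMP, IMP dehydrogenase and GMP synthetase lead to GMP, and ADSS with ADSL leads to AMP. IMPDH2 (chromosome 3, 49061758 to 49066880, minus strand), the dehydrogenase known for its rise in proliferating cells, measured 141.5 and 137 RPKM in Ctrl, against 74.19 and 76.68 RPKM in MYCN KD. The change on the log2 scale came to -0.88 (standard error 0.0388, adjusted p = 0.00359 from limma). IMPDH1, the paralog, measured 164.3 and 156.7 RPKM in Ctrl, against 129.8 and 136 RPKM in MYCN KD. Its conditions did not overlap either, but its fall was smaller, at -0.27 (standard error 0.0464, adjusted p = 0.0206 from limma). This call was lost with the replicate block (adjusted p = 0.105), without Ctrl replicate 1 (-0.24, adjusted p = 0.0813) and without MYCN KD replicate 1 (-0.24, adjusted p = 0.0905). Where a sample is left out, here and for the genes named later, its condition keeps 1 sample, which is assumed to vary like the other condition, with 1 residual degree of freedom. The spread of a gene then comes mostly from all tested genes, so passing the threshold in such a fit says little. GMPS fell by 0.46 on the log2 scale. ADSS stood at -0.34 (adjusted p = 0.0911 from limma), past the threshold in 3 of 13 other settings, namely with median-ratio scaling (-0.41, adjusted p = 0.0318), without Ctrl replicate 1 (-0.45, adjusted p = 0.00270) and without MYCN KD replicate 1 (-0.44, adjusted p = 0.00426). It came to -0.23 without Ctrl replicate 2 (adjusted p = 0.145) and -0.24 without MYCN KD replicate 2 (adjusted p = 0.152).

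Of the 5 genes of pyrimidine synthesis, 4 were lower, beside 22.8% of all tested genes. CAD (chromosome 2, 27440237 to 27466811, plus strand), which joins the first 3 activities of the pathway in 1 protein, measured 51.29 and 45.82 RPKM in Ctrl, against 25.9 and 28.94 RPKM in MYCN KD. MYCN KD kept 56.5% of the Ctrl mean, a log2 fold change of -0.80 (standard error 0.0900, adjusted p = 0.00905 from limma). The mitochondrial dehydrogenase DHODH and UMPS, which finishes UMP, fell with log2 fold changes of -0.48 and -0.53, and DHODH missed the threshold when genes of every level were kept (adjusted p = 0.0562 from limma). The CTP synthases parted. CTPS1 (chromosome 1, 41444972 to 41478237, plus strand) measured 38.91 and 40.1 RPKM in Ctrl, against 24.12 and 23.46 RPKM in MYCN KD (log2 fold change -0.71, standard error 0.0392, adjusted p = 0.00383 from limma). CTPS2 measured 6.892 and 7.417 RPKM in Ctrl, against 8.505 and 7.927 RPKM in MYCN KD, with both MYCN KD values above both Ctrl values. Its log2 fold change of 0.18 did not pass the threshold (95% interval -0.01 to 0.36, adjusted p = 0.0932 from limma) under any of the 13 other settings, not counting a block that pairs opposite replicate numbers.

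The 9 genes of deoxynucleotide synthesis and control were divided: 3 were lower (33.3%, beside 22.8% of all tested genes) and 6 did not pass the threshold. DCTPP1 (chromosome 16, 30434936 to 30441351, minus strand), which clears dCTP and its modified forms, had the largest fall of the 36 genes. It measured 183 and 174.7 RPKM in Ctrl, against 76.88 and 80.62 RPKM in MYCN KD, 44% of the Ctrl mean (log2 fold change -1.17, standard error 0.0465, adjusted p = 0.00359 from limma). Thymidylate synthase, TYMS, measured 33.54 and 35.74 RPKM in Ctrl, against 24.37 and 22.95 RPKM in MYCN KD (log2 fold change -0.53, standard error 0.0566, adjusted p = 0.00831 from limma). DUT, which makes the dUMP that TYMS uses, fell by 0.57 on the log2 scale. All 3 separated fully by condition, with MYCN KD below Ctrl, a pattern that 35.8% of all tested genes showed.

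Ribonucleotide reductase did not follow TYMS past the threshold. RRM2, the subunit that is made in S phase, measured 149.2 and 165.7 RPKM in Ctrl, against 161.2 and 145.8 RPKM in MYCN KD, so that the conditions overlapped. The estimated log2 change came to -0.04 (95% interval -0.28 to 0.21, adjusted p = 0.745 from limma) and ran from -0.12 to 0.05 over 13 other settings, so that no direction can be given. RRM1, the large subunit, was at -0.22 (adjusted p = 0.149 from limma) and passed with median-ratio scaling (-0.30, adjusted p = 0.0425), without Ctrl replicate 1 (-0.31, adjusted p = 0.0335) and without MYCN KD replicate 1 (-0.31, adjusted p = 0.0441), whereas it came to -0.13 without Ctrl replicate 2 (adjusted p = 0.409) and -0.14 without MYCN KD replicate 2 (adjusted p = 0.415). RRM2B, the p53-inducible form of the small subunit, measured 1.346 and 1.918 RPKM in Ctrl, against 2.508 and 1.784 RPKM in MYCN KD, which overlapped (log2 fold change 0.26, adjusted p = 0.299 from limma). It passed the threshold as higher without Ctrl replicate 2 (0.41, adjusted p = 0.00945) and without MYCN KD replicate 2 (0.42, adjusted p = 0.00640), and stood at 0.10 without Ctrl replicate 1 (adjusted p = 0.599) and 0.09 without MYCN KD replicate 1 (adjusted p = 0.637).

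The kinases of thymidine and thymidylate, TK1 and DTYMK, kept 92.4% and 90.8% of their Ctrl means without passing the threshold, although neither gene's conditions overlapped. The 95% interval of the log2 fold change was -0.28 to 0.06 for TK1 and -0.34 to 0.06 for DTYMK, with adjusted p of 0.195 and 0.175 from limma. The change of TYMS, -0.53, lies outside both intervals. Since the standard errors may be too small, the intervals may be too narrow and do not exclude such a fall. SAMHD1, which breaks down deoxynucleotides, had overlapping conditions and an interval from -0.27 to 0.45, and its direction turned in some alternatives (-0.02 to 0.20). Markers of the cell cycle moved as well: 13 of 15 S phase genes and 6 of 10 genes of G2 and mitosis were lower. None was higher (0 of 25, also 0 at an unadjusted p under 0.05 and 0 by limma voom). Of all tested genes 22.8% were lower and 25.3% higher. The S phase genes summed to 1619 and 1636 RPKM in Ctrl, against 1121 and 1131 RPKM in MYCN KD. PCNA (-1.18), CDC6 (-0.76) and AURKA (-0.70) fell most on the log2 scale. MKI67, the proliferation antigen, did not pass the threshold, at 42.95 and 46.48 RPKM in Ctrl, against 46.48 and 43.09 RPKM in MYCN KD. The part of the cell cycle genes in the changes of the nucleotide genes was not tested.

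Among the 5 kinases that charge nucleotides, NME1 and NME4 were lower (40%, beside 22.8% of all tested genes) and the other 3 were not called. NME1 (chromosome 17, 49230920 to 49239789, plus strand) measured 325.3 and 303.1 RPKM in Ctrl, against 157.4 and 168.9 RPKM in MYCN KD, 51.9% of the Ctrl mean (log2 fold change -0.94, standard error 0.0615, adjusted p = 0.00439 from limma). NME2, which begins 3006 bases further along the same strand, measured 8.193 and 7.843 RPKM in Ctrl, against 7.387 and 7.716 RPKM in MYCN KD (log2 fold change -0.08, adjusted p = 0.262 from limma). The annotation also lists a readthrough gene, NME1-NME2, over both, and how reads on shared exons were assigned is not given in the sources used here, so the levels of NME1 and NME2 are uncertain. NME4, the mitochondrial form, fell by 0.68 on the log2 scale. GUK1, the guanylate kinase, had overlapping conditions (log2 fold change 0.07, adjusted p = 0.311 from limma) and passed as higher with quantile normalization (0.19, adjusted p = 0.0142). The UMP and CMP kinase CMPK1 had the widest spread, with 13.33 and 18.85 RPKM in Ctrl, against 14.71 and 10.54 RPKM in MYCN KD. The log2 change of -0.33 (adjusted p = 0.338 from limma) became -0.56 without Ctrl replicate 1 (adjusted p = 0.000282) and -0.55 without MYCN KD replicate 1 (adjusted p = 0.000683), but -0.09 without Ctrl replicate 2 (adjusted p = 0.633) and -0.10 without MYCN KD replicate 2 (adjusted p = 0.594).

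In salvage, HPRT1, which recovers hypoxanthine and guanine, measured 52.22 and 60.82 RPKM in Ctrl, against 37.53 and 32.43 RPKM in MYCN KD (log2 fold change -0.68, standard error 0.117, adjusted p = 0.0209 from limma). APRT, the adenine counterpart, fell by 0.39 on the log2 scale. UCK2 (chromosome 1, 165796851 to 165880855, plus strand), a uridine and cytidine kinase, measured 47.15 and 47.12 RPKM in Ctrl, against 25.29 and 25.36 RPKM in MYCN KD, 53.7% of the Ctrl mean. The estimated log2 change came to -0.87 (standard error 0.0323, adjusted p = 0.00359 from limma). UCK1, the paralog, measured 29.22 and 27.96 RPKM in Ctrl, against 27.57 and 28.8 RPKM in MYCN KD, overlapping, with a 95% interval of -0.16 to 0.12 and estimates from -0.10 to 0.04 over the alternatives. The deoxycytidine kinase DCK overlapped as well and had an interval of -0.39 to 0.57, with estimates from -0.06 to 0.24 over the alternatives. Both enzymes that recover free bases were thus lower, and of the 3 nucleoside kinases UCK2 was lower.

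Several steps are carried by paired related genes, and their ratio within a sample is not changed when a whole sample is multiplied by 1 factor, apart from the pseudocount. Comparisons were made for 6 pairs. The log2 ratio of IMPDH1 to IMPDH2 was 0.21 and 0.19 in Ctrl, against 0.80 and 0.82 in MYCN KD, a change of 0.61. That of UCK1 to UCK2 was -0.67 and -0.73 in Ctrl, against 0.12 and 0.18 in MYCN KD, so that UCK1 went from the lower to the higher of the pair. That of CTPS1 to CTPS2 was 2.34 and 2.29 in Ctrl, against 1.40 and 1.45 in MYCN KD, a change of -0.88. In these 3 pairs the gap between conditions was many times the gap between replicates. NME1 to NME2 changed by -0.86, with the doubt on shared exons given above. PRPS1 to PRPS2 changed by -0.19 and RRM2 to RRM2B by -0.29, smaller changes that quantile normalization reduced to -0.09 and -0.10. The conditions did not overlap in any of the 6 pairs, and the two-sided exact permutation test gave p = 0.3333 for each (0.3333 after Benjamini-Hochberg adjustment over the 6), the smallest that 2 samples against 2 allow.

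**Figure D3:**
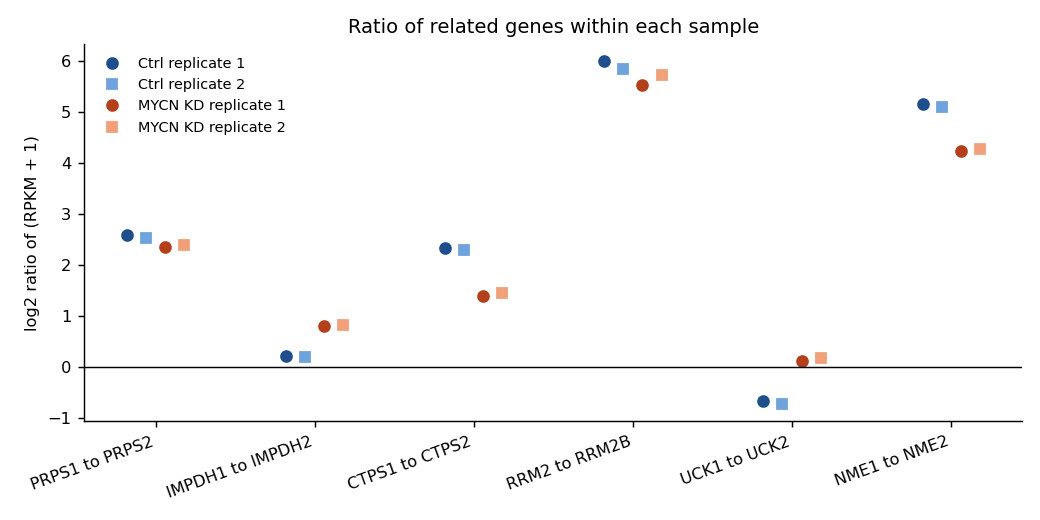
Log2 ratio of (RPKM + 1) between related genes within each sample, for the 6 pairs; each point is 1 sample. In IMPDH1 to IMPDH2 and UCK1 to UCK2 the MYCN KD points lie above the Ctrl points, and in CTPS1 to CTPS2 and NME1 to NME2 they lie below.

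Other genes of nucleotide metabolism were read in the same fit, to see how far the falls reached beyond the synthesis genes. Of 10 genes of the folate cycle, which supplies carbon to the purine ring and to thymidylate, 5 were lower and 1 was higher, with a median of -0.44. MTHFD2 (-1.20), MTHFD1L (-1.09) and SHMT2 (-0.74) fell most on the log2 scale.

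Of 34 further genes of purine handling 22 were tested, of which 10 were lower and 2 higher, with a median of -0.15. The largest falls were those of the mitochondrial deoxyguanosine kinase DGUOK (-0.99), of MTAP (-0.93), which recovers adenine from methylthioadenosine, and of the purine nucleoside phosphorylase PNP (-0.84). The ectonucleotidase NT5E, or CD73, rose from 5.659 and 6.642 RPKM in Ctrl to 19.09 and 16.33 RPKM in MYCN KD, a log2 change of 1.39 (standard error 0.116, adjusted p = 0.00588 from limma). PRPSAP1, which binds PRPP synthetases, rose by 0.18.

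Pyrimidine handling went less to one side. Of 22 listed genes 15 were tested, of which 3 were lower and 5 higher, with a median of 0.05. NME7 (-0.67), the deaminase DCTD (-0.35) and NT5C3B (-0.25) fell. UPB1, which ends pyrimidine breakdown, rose by 0.78, the uridine phosphorylase UPP1 by 0.58 and the mitochondrial thymidine kinase TK2 by 0.43. Of the 7 nucleoside transporter genes 4 were tested and all 4 passed the threshold. SLC29A1 (-0.67) and SLC29A2 (-0.63) fell, whereas SLC29A3 rose by 0.61 and SLC29A4 by 0.80. These values stand beside the background of 22.8% lower and 25.3% higher. Whether the lists differ from each other was not tested.

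**Figure D4:**
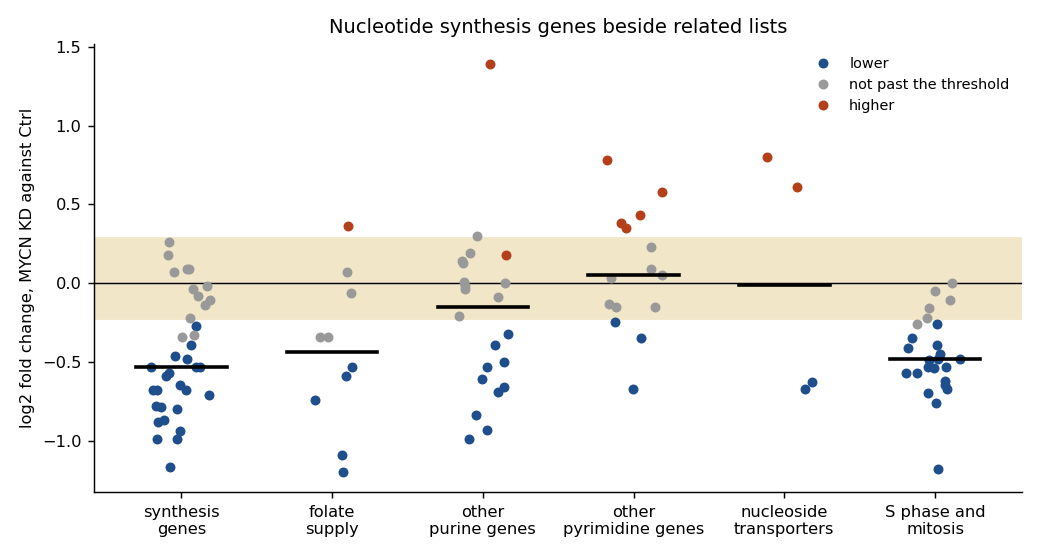
Log2 fold change of MYCN KD against Ctrl for the tested genes of 6 lists; each point is 1 gene, coloured by its call, the black line is the list's median and the band spans the quartiles of all tested genes. The medians are -0.53 for the 36 synthesis genes, -0.44 for folate supply, -0.15 and 0.05 for the other purine and pyrimidine genes, -0.01 for the transporters and -0.48 for S phase and mitosis.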

How the data were processed

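RNA-seq of 4 samples, 2 of Ctrl and 2 of MYCN KD, was analysed, grouped by sample titles. Per the labels and the study's methods, the authors aligned to hg19 (HISAT2 2.1.0), took gene-level counts over RefSeq (featureCounts), passed these through DESeq2 and then RUVSeq to take out unwanted variation, and deposited the resulting RPKM, 1 table for each sample. The RUVSeq variant is not given in the sources used here. Adjustment before deposit affects the spread between replicates, so standard errors and p-values may be too small.

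Totals were set from 1569 small RNA genes of known length. With them all 19908 genes above 0 gave whole counts in every sample (100% within 0.0001 counts plus rounding). These are counts after the authors' normalization and may differ from the reads sequenced. Intervals from such counts would cover counting error only and are not given.

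The test was limma 3.58.1 (R 4.3.3, eBayes with a trend, no block) on log2(RPKM + 1). It took in the 11411 genes whose mean RPKM reached 1, and p-values were adjusted over all of these by the Benjamini-Hochberg method, with a threshold of 0.05. On this scale changes of low genes are understated. Gene positions are those of GENCODE release 44 lifted to GRCh37. Related genes were compared by an exact permutation test (scipy 1.17.1). The 36 genes, the other lists and the tests were chosen with earlier results of these data known. Each gene is named, and values per sample are given for the 10 largest falls past the threshold without overlap, for 10 key enzymes and for related pairs; in the other lists up to 3 falls and 3 rises are named. Genes outside this rule are given where a result turns on them. Some genes of the other lists are not reported here by name. Alternatives were another pseudocount, other filters and scalings, the replicate block and no trend. Further ones were leaving out each sample and limma voom on the recovered adjusted counts. A crossed block was added after seeing the data.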

Additional observations from a re-analysis of the deposited data

How the results depend on the processing

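Of the 23 genes lower in MYCN KD, 20 stayed past the threshold under every alternative with both samples of each condition (the crossed block apart). PPAT, IMPDH1 and DHODH did not. Of the 13 genes not called, ADSS, RRM1 and GUK1 passed under at least 1 of these alternatives. RRM2B and CMPK1 passed only where a sample was left out, and 8 passed under none of the 13 settings. Over these alternatives from 21 (no filter on low values) to 25 genes were lower, and 22 with the replicate block. Leaving out 1 sample gave from 23 to 25 lower, from 0 to 1 higher (RRM2B), and medians from -0.571 to -0.485. These 4 fits leave 1 sample in a condition, assumed to vary like the other condition, and 1 residual degree of freedom. Quantile normalization gave 1 higher (GUK1). Median-ratio scaling took the median from -0.528 to -0.603. With samples rescaled to the same total, both MYCN KD values lay above both Ctrl values in 3 genes, and with quantile normalization in 2, against 1. With a mean RPKM of at least 5, 1868 of the 7859 genes then tested were higher, against 2890 of 11411. Samples with the same replicate number had opposite deviations. Whether they were prepared in pairs cannot be read from this, since the authors' adjustment came before. The block, which leaves 1 residual degree of freedom, gave 1851 lower and 2077 higher of all genes, and changed no call among the 36 genes other than IMPDH1. The crossed replicate block, added after seeing the data, gave 31 lower and 5 higher of the 36 genes, and 5262 and 5910 of all genes. Other causes of these changes were not tested. Since each condition has 2 samples, whose deviations mirror each other, falls the size of those of ADSS and RRM1 sit near the limit of what this design calls.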
